A study of Mus musculus with 25 samples.

Results

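The 9 genes followed here, out of 22439 in the deposited count matrices, were chosen by name: the Toll-like receptor genes Tlr1, Tlr2, Tlr3, Tlr4, Tlr7, Tlr9 and Tlr13, the co-receptor gene Cd14 and the adaptor gene Myd88. They were measured by droplet 3′ RNA-seq in 30958 myeloid cells of 25 libraries from the mouse spinal cord, each library pooling tissue from 1 to 3 mice, so that the library was the replicate. Of these libraries, 2 came from mice with a laminectomy alone (Ctrl), 5 from day 1 after spinal cord injury (D1), 4 from day 2 (D2), 7 from day 3 (D3), 5 from day 10 (D10) and 2 from day 21 (D21). All mice carried Cx3cr1CreERT2, a tamoxifen-dependent Cre driven from the Cx3cr1 gene, and all collected cells were YFP-positive. Mice of the strain Cx3cr1CreERT2 gave 12 libraries of all YFP-positive cells, called mixed. Mice of the strain Cx3cr1CreERT2:R26tdTomato, which adds a red fluorescent reporter that Cre turns on, gave 5 libraries of RFP+/YFP+ cells, called resident, and 7 of RFP-/YFP+ cells, called infiltrating. Sort and strain were therefore split the same way and cannot be told apart between mixed and other libraries. Of the 2 control libraries, the mixed one came from female mice and the resident one from male mice. Ages and the timing of Cre induction are not given in the sources used here. In 1 further D3 library the title and the sort label conflict. It was left out of the comparisons and entered fits only as an alternative, added as infiltrating. It counts in the numbers of cells and UMIs given over all libraries, and its values are named where they are used.

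Between 155 and 3800 cells and 486649 and 33204422 UMIs were counted per library (unique molecular identifiers, each standing for 1 captured RNA molecule), the median UMIs of a cell ran from 1577 to 11233, and no barcode occurred in more than 1 library. The authors' cell type codes carry no names and were named from markers. The code called microglia held 13289 cells and 9 of 9 microglia markers. The code called macrophages held 12841 cells, with 7 of 9 macrophage and 5 of 8 monocyte markers, and takes in monocytes. Dendritic-like cells numbered 2712, with 5 of 8 markers, and neutrophil-like cells 2116, with 7 of 7. Cells of the control libraries were all microglia. The libraries lay in 7 sequencing pools, and no pool held all time points.

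Toll-like receptors bind conserved parts of microbes and molecules released by damaged cells. Tlr1, Tlr2 and Tlr4 act at the cell surface, where Tlr2 pairs with Tlr1 on lipopeptides and Tlr4 binds lipopolysaccharide with help from Cd14, which hands the ligand over. Tlr3, Tlr7, Tlr9 and Tlr13 sit in endosomes and bind double-stranded RNA, single-stranded RNA, unmethylated CpG DNA and bacterial ribosomal RNA, in that order. All of them except Tlr3 signal through the adaptor Myd88 to NF-kB, while Tlr3 uses the adaptor Trif. In the central nervous system microglia, the resident macrophages, are the main cells known to carry these receptors.

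Summed over all cells, the members had 100673 UMIs for Cd14, 25750 for Tlr2, 12945 for Tlr13, 11549 for Myd88, 7643 for Tlr7, 5550 for Tlr4, 3157 for Tlr1, 3099 for Tlr3 and 314 for Tlr9. Values for Tlr9 therefore rest on few molecules. On GRCm38, Tlr2 lies at chr3:83836272-83841767 on the minus strand, Tlr4 at chr4:66827584-66930284 on the plus strand and Tlr1 at chr5:64924679-64933563 on the minus strand. Tlr3 lies at chr8:45395665-45411080 on the minus strand and overlaps the antisense gene Gm45542, and Tlr9 lies at chr9:106222598-106226883 on the plus strand. Myd88 lies at chr9:119335934-119341411 on the minus strand, where it overlaps Slc22a14 on the same strand and Acaa1a on the opposite strand. Reads of Myd88 and Slc22a14 may therefore be shared. Tlr13 (X:106143204-106160493, plus strand) and Tlr7 (X:167304929-167330558, minus strand) are on the X chromosome.

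The following promoters are shown because their genes moved in different ways in the cells described below and because a short motif known from immune promoters lies in each. The sequences are from RefSeq on GRCm38.p6, cover the 250 bases before the start that RefSeq gives, and are written 5′ to 3′ on the gene's strand, here the minus strand in each case. They cover chr3:83841609-83841858 for Tlr2, chr8:45410381-45410630 for Tlr3 and chr9:119340019-119340268 for Myd88. The gene positions above are those of another annotation, GENCODE, whose starts differ, so the Tlr3 and Myd88 stretches lie inside the genes as given above and the Tlr2 stretch partly does. Capitals mark the motif match.
Tlr2: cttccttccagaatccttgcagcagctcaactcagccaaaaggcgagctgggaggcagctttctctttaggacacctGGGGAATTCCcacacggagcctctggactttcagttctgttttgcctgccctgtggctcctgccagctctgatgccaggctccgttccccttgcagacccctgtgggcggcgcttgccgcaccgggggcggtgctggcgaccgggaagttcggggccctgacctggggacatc
Tlr3: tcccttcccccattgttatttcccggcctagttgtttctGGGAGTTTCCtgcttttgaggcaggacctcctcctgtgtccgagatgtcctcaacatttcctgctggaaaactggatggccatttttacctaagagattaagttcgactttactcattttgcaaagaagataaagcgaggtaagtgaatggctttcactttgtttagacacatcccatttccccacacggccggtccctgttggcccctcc
Myd88: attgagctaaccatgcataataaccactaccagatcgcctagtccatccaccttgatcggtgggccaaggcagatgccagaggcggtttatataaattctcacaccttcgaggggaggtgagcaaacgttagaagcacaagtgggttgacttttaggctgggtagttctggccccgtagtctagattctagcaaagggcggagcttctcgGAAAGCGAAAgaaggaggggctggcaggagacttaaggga

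RefSeq entries were matched for 6 of the 9 members (7 promoters, 2 of them for Tlr1), and not for Tlr4, Tlr7 and Cd14. Both strands of 32851 promoters (250 bases before to 50 after the start) were searched. The NF-kB-like letters GGGNNNTTCC occur in 5.56% of all promoters and in 2 of the 7 here, at -173 in Tlr2 and -211 in Tlr3. The interferon-response-like letters GAAANNGAAA occur in 3.44% of all and here at -40 in Myd88. The PU.1-like letters GAGGAAGT occur in 3.20% of all and here in a promoter of Tlr1 (-23) and that of Tlr9 (10 bases after the start). These are matches of letters and were not tested as binding sites.

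To ask how the members changed in microglia after injury, counts were summed over the microglia of each resident or mixed library (17 sums of 23 to 1500 cells) and compared in edgeR, whose adjusted p values cover all 10801 genes tested. Levels are given as scaled CPM, the usual counts per library size after TMM scaling, and differences as fitted log2 changes with their standard error (SE). The comparisons with Ctrl share its 2 libraries, so they are not independent of each other. The fit had no term for sort or strain, and all D1 sums came from mixed libraries of male mice. The D1 changes against Ctrl therefore hold part of any difference between sorts or strains. In microglia Tlr3 fell at every time point tested, Tlr4 fell at D1, D2 and D3, Tlr2 was higher at D3 and D10, and Cd14 rose at D1 and then fell below its control level. At D1, 1 of the 9 members was called higher and 3 lower, against 23.9% and 22.7% of all genes. At D2 the calls were 0 and 2, against 17.6% and 12.2%. At D3 they were 1 and 4, against 20.1% and 17.6%, and at D10 1 and 1, against 8.06% and 2.22%. The median log2 change of the members was -0.34, -0.68, -0.96 and -0.29 at these time points in turn, and that of all genes was -0.01, -0.02, -0.04 and -0.01. The plot of microglial levels by time shows each library.

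**Figure D1:**
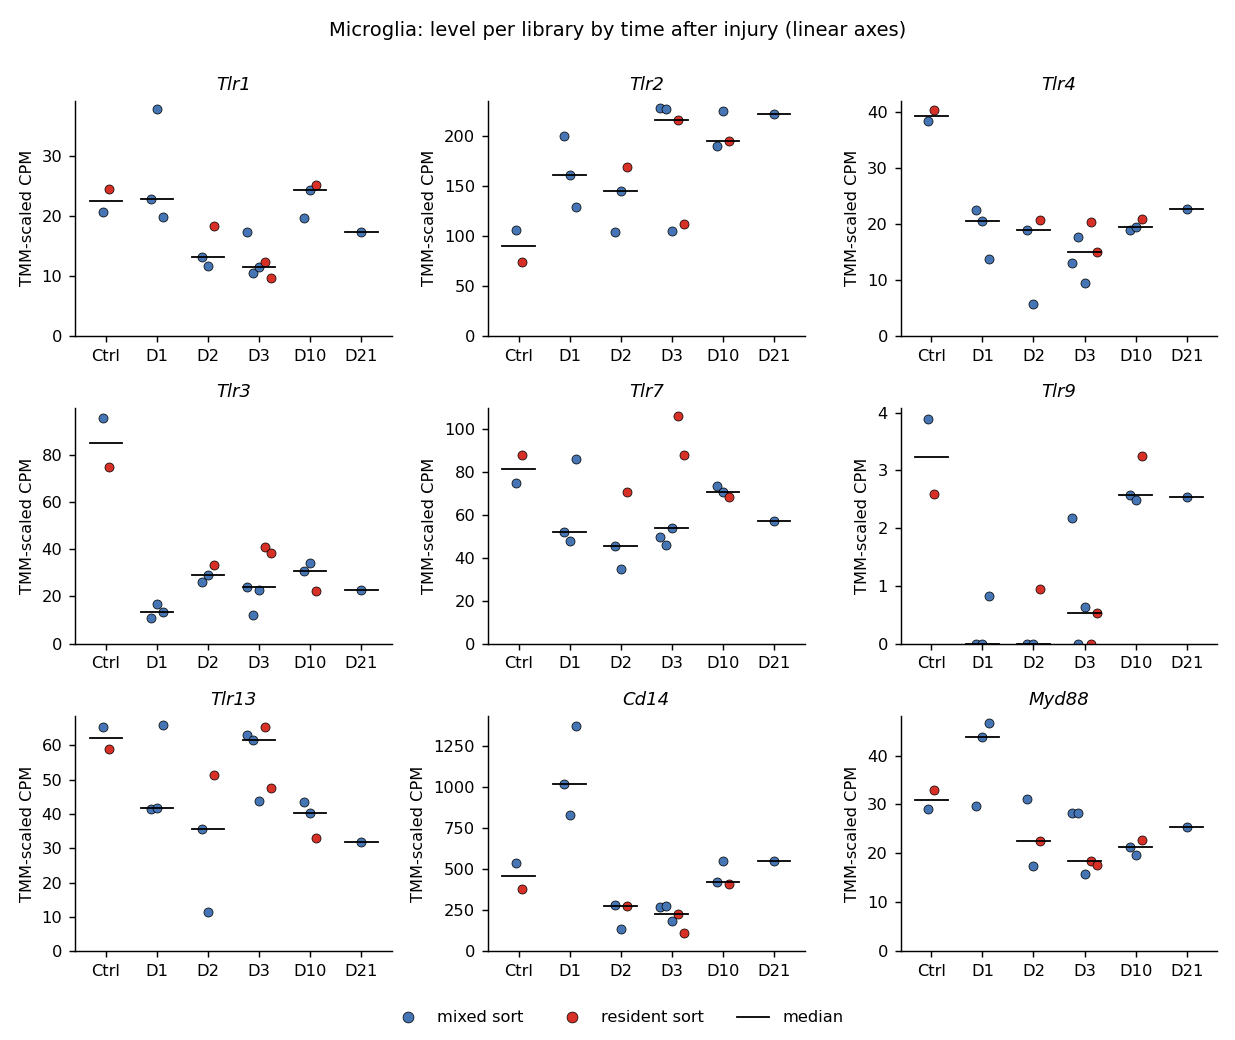
Scaled CPM (vertical axes, linear) of the 9 genes in microglia by time point (horizontal axes), with a point for each library, coloured by sort, and a line at the median of each time point. All injured libraries lie below both controls for Tlr3 (at most 40.8 against at least 74.7) and Tlr4, and Cd14 peaks at D1.

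Scaling bears on these levels. TMM factors of the microglial sums were 1.38 to 1.46 in controls and 0.843 to 0.905 at D1, and with scaling by total UMIs alone, tried after seeing the data, the median log2 change of all genes against Ctrl moved to -0.73, -0.40, -0.62 and -0.60 from D1 to D10. The changes below are relative to the TMM scale. The direction of each called change against Ctrl was the same with total UMIs, where the D1 rise of Cd14 was 0.59 (edgeR adjusted p = 0.184) and the rises of Tlr2 were 0.40 at D3 (0.360) and 0.61 at D10 (0.216), none of them past the threshold.

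Tlr2, the surface receptor for lipopeptides, was at 106 scaled CPM in Ctrl_mixed 1 and 74.0 in Ctrl_resident 1. Its levels were 129, 162 and 199.8 at D1, 105, 145 and 170 at D2, 105, 112, 216.5, 227 and 228 at D3, and 191, 195 and 226 at D10. Every D1 and D10 library lay above both controls, while the D2 and D3 ranges met the higher control. The log2 change was 0.97 at D3 (SE 0.35, edgeR adjusted p = 0.0358) and 1.19 at D10 (SE 0.37, adjusted p = 0.0453), and 0.89 at D1 (SE 0.38, adjusted p = 0.0650) and 0.64 at D2 (SE 0.37, adjusted p = 0.194) were not past the threshold. Within the pool of Ctrl_mixed 1, Tlr2 was 106 in that library and 191 and 226 in both D10 mixed libraries, and within the pool of Ctrl_resident 1 it was 74.0 there, 170 at D2 and 195 at D10.

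These calls of Tlr2 depended on single libraries. The D3 call was lost without Ctrl_mixed 1 (1.25), Ctrl_resident 1 (0.70), D2_mixed 2 (0.93), D3_resident 1 (0.84), D3_mixed 1 (0.89) or D3_mixed 2 (0.84). The D10 call was lost without either control (1.48 without Ctrl_mixed 1, 0.91 without Ctrl_resident 1), D1_mixed 1 or 2, D2_mixed 2, D3_resident 1, any of the 3 D10 libraries or D21_mixed 1, with log2 changes from 0.91 to 1.48 in these 10 refits. Other settings ended them too: with mixed libraries alone Tlr2 stood at 0.33 at D3 and 0.47 at D10, with median-of-ratios scaling at 0.88 (adjusted p = 0.0574) and 1.09 (adjusted p = 0.0733), and with at least 50 cells in a sum at 0.93 (adjusted p = 0.0541) and 1.14 (adjusted p = 0.0737). Without the cells of the authors' cluster 2 the D10 call was lost (1.17, edgeR adjusted p = 0.0757).

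Tlr4, the receptor for lipopolysaccharide, was at 38.4 and 40.3 scaled CPM in the controls. It was at 13.8, 20.6 and 22.5 in D1 libraries, 5.79, 19.0 and 20.7 in those of D2, 9.53, 13.03, 15.0, 17.6 and 20.4 at D3, and 18.9, 19.4 and 20.9 at D10. No injured library reached the lower control, and the lone D21 library had 22.6. Tlr4 fell by 0.98 on the log2 scale at D1 (SE 0.33, edgeR adjusted p = 0.0213), by 1.07 in D2 libraries (SE 0.33, adjusted p = 0.0212) and by 1.39 at D3 (SE 0.31, adjusted p = 0.00260), and the D10 value of -0.97 had an adjusted p of 0.0546, while DESeq2 called it (-1.08). Without Ctrl_resident 1 the D1, D2 and D3 changes were -0.73, -0.90 and -1.18, none past the threshold. The D1 call was also lost without D1_mixed 3 (-0.74), and the D2 call without Ctrl_mixed 1 (-1.22) or D2_mixed 1 (-1.02). With mixed libraries alone, where Ctrl_mixed 1 was the only control and the sex term rested on the D2 pair, the sign of Tlr4 in microglia D1 vs Ctrl turned to 0.71 (adjusted p = 0.785) and in microglia D3 vs Ctrl to 0.10 (adjusted p = 1.00), and the D2 call was lost (-1.01).

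Tlr1, the partner of Tlr2, was at 20.6 and 24.4 scaled CPM in controls and at 19.8, 22.7 and 37.8 at D1. At D3 it was at 9.62, 10.6, 11.4, 12.3 and 17.4, below both controls and below every D1 library, and at D10 it was at 19.7, 24.4 and 25.1. Tlr1 was lower at D3 than in Ctrl, by a log2 value of -0.96 (SE 0.33, edgeR adjusted p = 0.0290), and lower than at D1 (-1.18, SE 0.29, adjusted p = 0.0104). The call against Ctrl was lost without Ctrl_mixed 1 (-1.05), Ctrl_resident 1 (-0.80), D3_resident 2 (-0.89) or D10_mixed 2 (-0.93), and the call against D1 without D1_mixed 2 (-0.86), the library with the highest D1 value. Neither was called with mixed libraries alone (-0.52 and -1.10).

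Among the endosomal receptors, Tlr3, the receptor for double-stranded RNA, fell at each time point tested. It was at 74.7 and 95.4 scaled CPM in controls, 10.9, 13.2 and 16.9 in D1 libraries, 26.3, 29.0 and 33.1 in those of D2, 12.3, 22.9, 23.9, 38.5 and 40.8 at D3, 22.3, 30.9 and 34.3 at D10 and 22.6 at D21. The groups did not overlap with controls at any time point. Tlr3 fell by 2.62 on the log2 scale at D1 (SE 0.37, edgeR adjusted p = 5e-05), by 1.51 in D2 libraries (SE 0.36, adjusted p = 0.00577), by 1.58 at D3 (SE 0.33, adjusted p = 0.00147) and by 1.53 at D10 (SE 0.35, adjusted p = 0.00776). The D1 and D3 calls held without each of the 17 libraries in turn (-2.82 to -2.44 and -1.80 to -1.40). The D2 call was lost without Ctrl_mixed 1 (-1.31) or D2_mixed 1 (-1.32), and the D10 call without Ctrl_mixed 1 (-1.33) or D10_resident 1 (-1.27). The D3 and D10 values with mixed libraries alone were -2.39 (adjusted p = 0.121) and -1.73 (adjusted p = 0.412).

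Within the pool of Ctrl_mixed 1, Tlr3 was 95.4 there and 30.9 and 34.3 at D10, and within the pool of Ctrl_resident 1 it was 74.7 there, 33.1 at D2 and 22.3 at D10. From D1 to D3 Tlr3 rose again by 1.04 on the log2 scale (SE 0.32, edgeR adjusted p = 0.0316). That call was lost without D1_mixed 1 (0.88), D1_mixed 2 (1.20), D1_mixed 3 (0.99), D3_resident 1 (0.90) or D3_resident 2 (0.88), and with mixed libraries alone (0.54, adjusted p = 0.296). Both D3 resident libraries, at 38.5 and 40.8, lay above all 3 D3 mixed libraries, and all D1 sums of microglia came from mixed libraries.

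Tlr7, the receptor for single-stranded RNA, and Tlr13, the receptor for bacterial ribosomal RNA, were not called in any microglial comparison on the TMM scale. Tlr7 was at 74.8 and 88.1 scaled CPM in controls, 48.1 to 86.3 in D1 libraries, 34.7 to 70.9 in those of D2, 45.8 to 106 at D3 and 68.3 to 73.5 at D10. Tlr13 was at 58.8 and 65.3 in controls, 41.4 to 65.9 in D1 libraries, 11.6 to 51.3 in those of D2, 43.8 to 65.4 at D3 and 33.0 to 43.5 at D10. Their log2 changes against Ctrl lay between -0.68 and -0.18, and with total UMIs as the scale Tlr13 had calls at all 4 time points (-1.07, -1.07, -0.76 and -1.26 in time order) and Tlr7 at D1, D2 and D3 (-1.08, -0.95 and -0.81).

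Tlr9, the receptor for CpG DNA, had 37 UMIs in the control microglia, or 4.97 CPM, and 3 in those of D1, or 0.242 CPM. The ratio was 0.0488 with a 95% counting interval of 0.00962 to 0.154, and edgeR called it lower (adjusted p = 0.0108), while with mixed libraries alone its fitted log2 change was -3.57 (adjusted p = 1.00), against -3.40 over all libraries. There were 8 UMIs at D2 (0.806 CPM), 3 at D3 (0.572 CPM) and 29 at D10 (2.54 CPM), none of which passed the threshold. The interval covers counting error only.

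Cd14, the co-receptor that hands ligands to Tlr4, changed in both directions in microglia. It was at 380 and 539 scaled CPM in controls, 833, 1023 and 1373 in D1 libraries, 139, 279 and 285 in those of D2, 114, 187, 229, 271.5 and 278 at D3, 412, 425 and 553 at D10 and 552 at D21. The D1 libraries lay above both controls, the D2 and D3 libraries below both, and the D10 range overlapped the controls. Cd14 rose by 1.32 on the log2 scale at D1 (SE 0.39, edgeR adjusted p = 0.0106), stood at -0.89 in D2 libraries (SE 0.36, adjusted p = 0.0658) and fell by 1.04 at D3 (SE 0.33, adjusted p = 0.0192). The D2 value was not called by edgeR, while DESeq2 called it (-0.99).

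Between injured time points, Cd14 fell by 2.37 on the log2 scale from D1 to D3 (SE 0.29, edgeR adjusted p = 6e-05) and rose by 1.10 from D3 to D10 (SE 0.28, adjusted p = 0.0300). The D1 to D3 fall was called without each of the 17 libraries in turn (-2.52 to -2.12). The D1 rise was lost without Ctrl_resident 1 (1.13), the D3 fall without Ctrl_mixed 1 (-0.85) or Ctrl_resident 1 (-1.24), and the D3 to D10 rise without D3_resident 2 (0.91), D10_resident 1 (1.22), D10_mixed 1 (1.11) or D10_mixed 2 (0.89). With mixed libraries alone the D1 rise was 2.05 (adjusted p = 0.0530), the D3 value against Ctrl was -0.11 (adjusted p = 0.942) and that of D10 against D3 was 0.97 (adjusted p = 0.0912), none past the threshold. The fall from D1 to D3 could be followed inside the authors' clusters: in cluster 5, Cd14 was 718 to 988 CPM in 3 D1 libraries and 93.1 to 223 in 4 D3 libraries, and in cluster 2 it was 612 to 1491 in 3 and 62.7 to 240.0 in 4. The rise from D3 to D10 was seen in some clusters. Cd14 was higher at D10 in cluster 5 (259 to 435 CPM in 2 libraries against 93.1 to 223 in 4) and in cluster 4 (426 to 651 in 3 against 277 in 1), and the times overlapped in cluster 2 (164 to 242 against 62.7 to 240.0), cluster 3 (35.4 to 373 in 5 libraries, the infiltrating ones lowest, against 151.5 to 349 in 5) and cluster 6 (115 to 216 in 3 against 62.1 to 226 in 5). Cluster 4 held 139 cells of D3 and 891 of D10. These values take in all cells of a cluster: cluster 2 held 1801 cells of the microglia code and 123 of the macrophage code, and cluster 3 held 3312 and 348.

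Myd88, the shared adaptor, was at 29.0 and 32.9 scaled CPM in control microglia, 29.7, 43.8 and 46.6 at D1, 15.9 to 28.2 at D3 and 19.6 to 22.8 at D10. It was not called against Ctrl at any time point on the TMM scale (with total UMIs it was at D3 and D10, -1.13 and -1.11) and fell by 0.97 on the log2 scale from D1 to D3 (SE 0.26, edgeR adjusted p = 0.0168), with no overlap between these groups. The call was lost without D1_mixed 2 (-0.90), D1_mixed 3 (-0.87) or D3_resident 2 (-0.83), and with mixed libraries alone (-0.83). Over all members, 1 was called higher and 3 lower from D1 to D3, against 8.62% and 10.2% of genes. From D3 to D10, 1 was called higher and 0 lower, against 2.96% and 3.92% (DESeq2 called 2 members higher and 0 lower, against 5.55% and 8.1%).

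In the same sums the levels of marker lists also moved. The summed CPM of the 9 macrophage markers was 796 to 930 in control microglia, 2874 to 3230 at D1, 3963 to 5540 at D3 and 5070.2 to 6183 at D10, that of the 9 microglia markers was 23288 to 25991 in controls and 4032 to 8316 at D1, and that of the 8 monocyte markers was at most 42.4 in any microglial sum. The 6 T cell markers summed to 89.0 to 135 CPM in controls and 2.85 to 5.11 at D1, with 4 of the 6 genes at 0 in both, and the 5 B cell markers to 231 to 313 and 33.7 to 60.6, with 3 of the 5 at 0. A list of 10 genes associated with tissue dissociation stood at 1170 to 1656 CPM in controls, 417 to 625 at D1 and 228 to 504 at D3. Their part in the changes of the members was not tested.

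For D1 against Ctrl and D3 against D1 no fit with the sequencing pool as a term could be made, and there pool and time cannot be told apart. With that term the D3 value rests on D3_mixed 3 alone, set against Ctrl through D2 libraries, because the other D3 sums lie in pools with no other time point of microglia. In that fit 2.36% of all genes were called at D3 against Ctrl, and none of the 5 members called without the term passed the threshold: Tlr3 stood at -1.48, Tlr4 at -1.62, Tlr2 at 1.02, Tlr1 at -0.59 and Cd14 at -0.42. The term also ended the D2 call of Tlr4 (-0.91) and the D3 to D10 rise of Cd14 (0.43), and added calls of Tlr2 at D2 (1.11, adjusted p = 0.0373) and of Tlr4 at D10 (-0.95, adjusted p = 0.0228). Between female and male microglia, tested in the same fit, 0 of 9 members were called, against 0% of all genes higher and 0% lower. By edgeR 101 genes and 0 members had an unadjusted p under 0.05, and DESeq2 called 0 genes. The X-linked receptors Tlr7 and Tlr13 had log2 differences of 0.08 (SE 0.25) and -0.02 (SE 0.24), female against male.

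**Figure D2:**
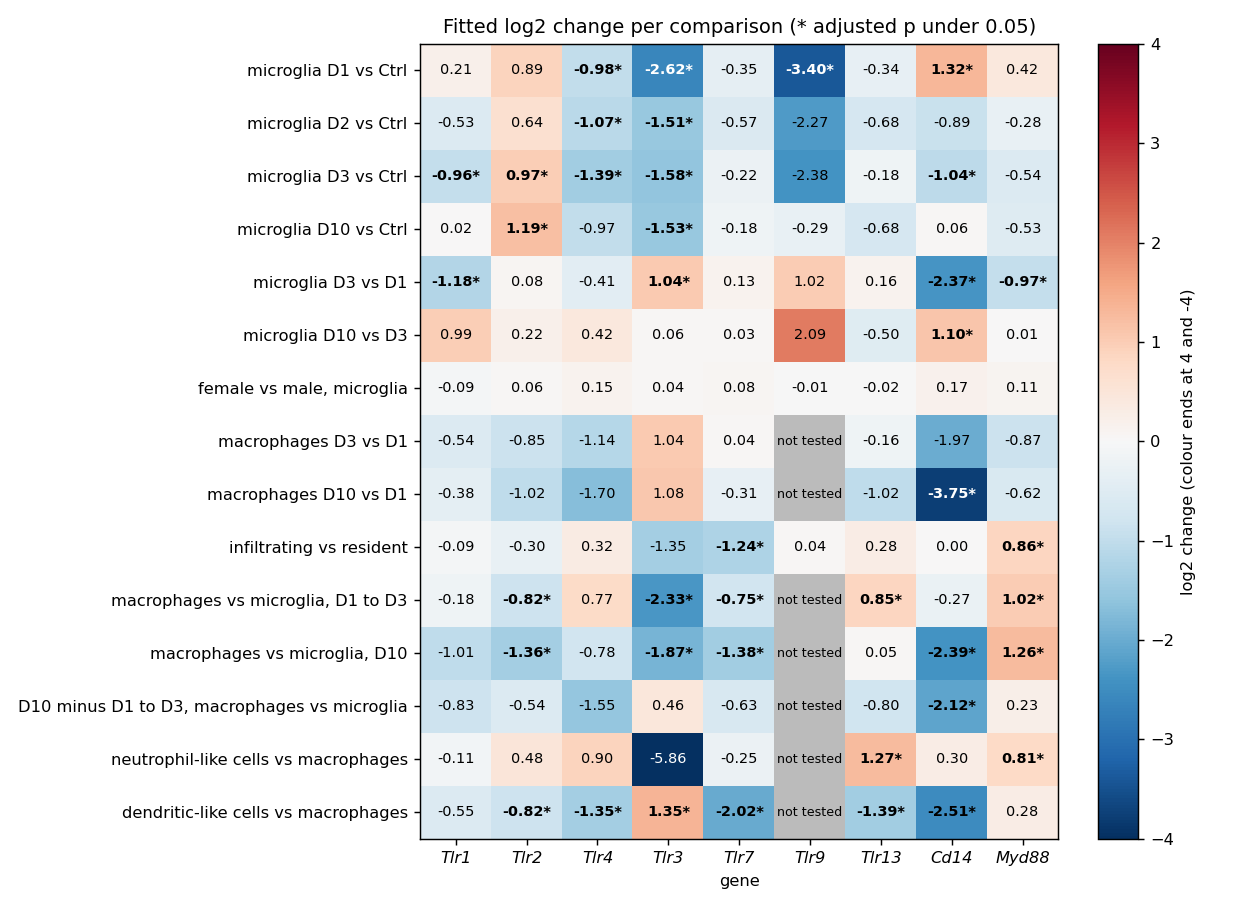
Fitted log2 changes of the 9 genes (columns) in each comparison (rows), with the colour scale ending at 4 and -4 and stars where the edgeR adjusted p was under 0.05. Tlr3 is lower after injury in microglia and lower in macrophages than in microglia, grey cells mark Tlr9 where its counts were too low to be tested, and the fitted Tlr3 value of neutrophil-like cells comes from 0 UMIs there and gives no size.

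Macrophages were compared with their own D1 state, since the control libraries held none (15 sums of infiltrating or mixed libraries, 28 to 3019 cells, 8577 genes, 8 members tested). Cd14 fell from D1 to D10 in these cells, and no other member was called. From D1 to D10, 0 of the 8 members were called higher and 1 lower, against 7.31% and 7.04% of genes. The members' median log2 change was -0.82, and that of all genes 0.01. From D1 to D3, 0 members were called, against 0% of genes higher and 0% lower. There 612 genes and 0 members had an unadjusted p under 0.05 in edgeR, and DESeq2 called 16 genes and 0 members.

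Cd14 was at 661, 918, 999.8 and 1699 scaled CPM in D1 libraries, 57.6, 219 and 977 in those of D2, 30.5 and 439 at D3, 37.5, 51.2, 119.6 and 162 at D10, and 88.1 and 861 at D21. Every D10 library lay below every D1 library. It fell by 3.75 on the log2 scale from D1 to D10 (SE 0.91, edgeR adjusted p = 0.0165), and without D10_mixed 1 the change was -3.57 with an adjusted p of 0.0534. At D2, D3 and D21 the libraries of a time point differed widely: at D2 and D3 the infiltrating library was the highest, and at D21 the mixed one was.

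The clusters behind these sums differed between time points. At D1 cluster 11 held 10.7% to 66.6% of the macrophages of a library, while at D10 clusters 9 (14.7% to 78.7%) and 3 (10.9% to 57.8%) held most of them. Cluster 3 is shared by 3312 cells of the microglia code and 348 of the macrophage code. Cluster 9 held 88.6% of the macrophages of D3_mixed 3, and cluster 3 held 91.0% of those of D21_mixed 1. Within clusters few libraries could be compared. In cluster 9 Cd14 was 122 CPM in the 1 D1 library with at least 20 cells there and 100 to 212 in 3 of D10, and in cluster 13 it was 140 CPM in 1 D1 library (25 cells) and 54.9 in 1 of D10 (36 cells), while D3_mixed 3, which gave 2676 cells of cluster 9, had 20.9 there. The summed CPM of the dissociation genes in macrophages was 1879 to 2348 at D1 and 594 to 655 at D10, and that of the monocyte markers was 2636 to 6378 and 710.4 to 5648. Their part in the change of Cd14 was not tested.

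Tlr4 in macrophages was at 18.9, 27.1, 60.5 and 71.7 scaled CPM at D1 and 3.00, 6.40, 18.7 and 27.7 at D10, which was not called (-1.70 on the log2 scale, SE 0.62, edgeR adjusted p = 0.0777). DESeq2 called it (-1.65, adjusted p = 0.0493). Tlr2 was at 139.7, 157, 177 and 197 at D1 and 33.1, 52.6, 128 and 134 at D10, and the groups did not overlap (-1.02, SE 0.47, edgeR adjusted p = 0.159). Tlr13 was at 49.1, 66.0, 77.8 and 123 at D1 and 28.5, 28.8, 34.7 and 62.6 at D10 (-1.02, SE 0.39, edgeR adjusted p = 0.0921). For Tlr2, Tlr3, Tlr4, Tlr7, Tlr13 and Cd14 both D10 infiltrating libraries lay above both D10 mixed libraries.

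Myd88 was at 64.2, 68.1, 69.5 and 85.3 scaled CPM in D1 macrophages and 31.2, 38.9, 56.6 and 63.1 at D10, with no overlap and no call (-0.62, SE 0.33, edgeR adjusted p = 0.227). Tlr7 was at 25.8 to 42.6 at D1 and 11.7 to 51.5 at D10, and Tlr1 at 11.3 to 22.7 and 7.51 to 19.0. Tlr3 was at 0.953 to 11.3 at D1 and 1.07 to 15.6 at D10. Tlr9 did not pass the filter on low counts. With mixed libraries alone 0 of 7 members tested were called higher from D1 to D10 and 5 lower, beside 8.91% and 6.85% of all genes in that fit (Tlr2 -1.92, Tlr4 -3.20, Tlr7 -1.51, Tlr13 -1.55 and Cd14), each group then holding 2 libraries.

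**Figure D3:**
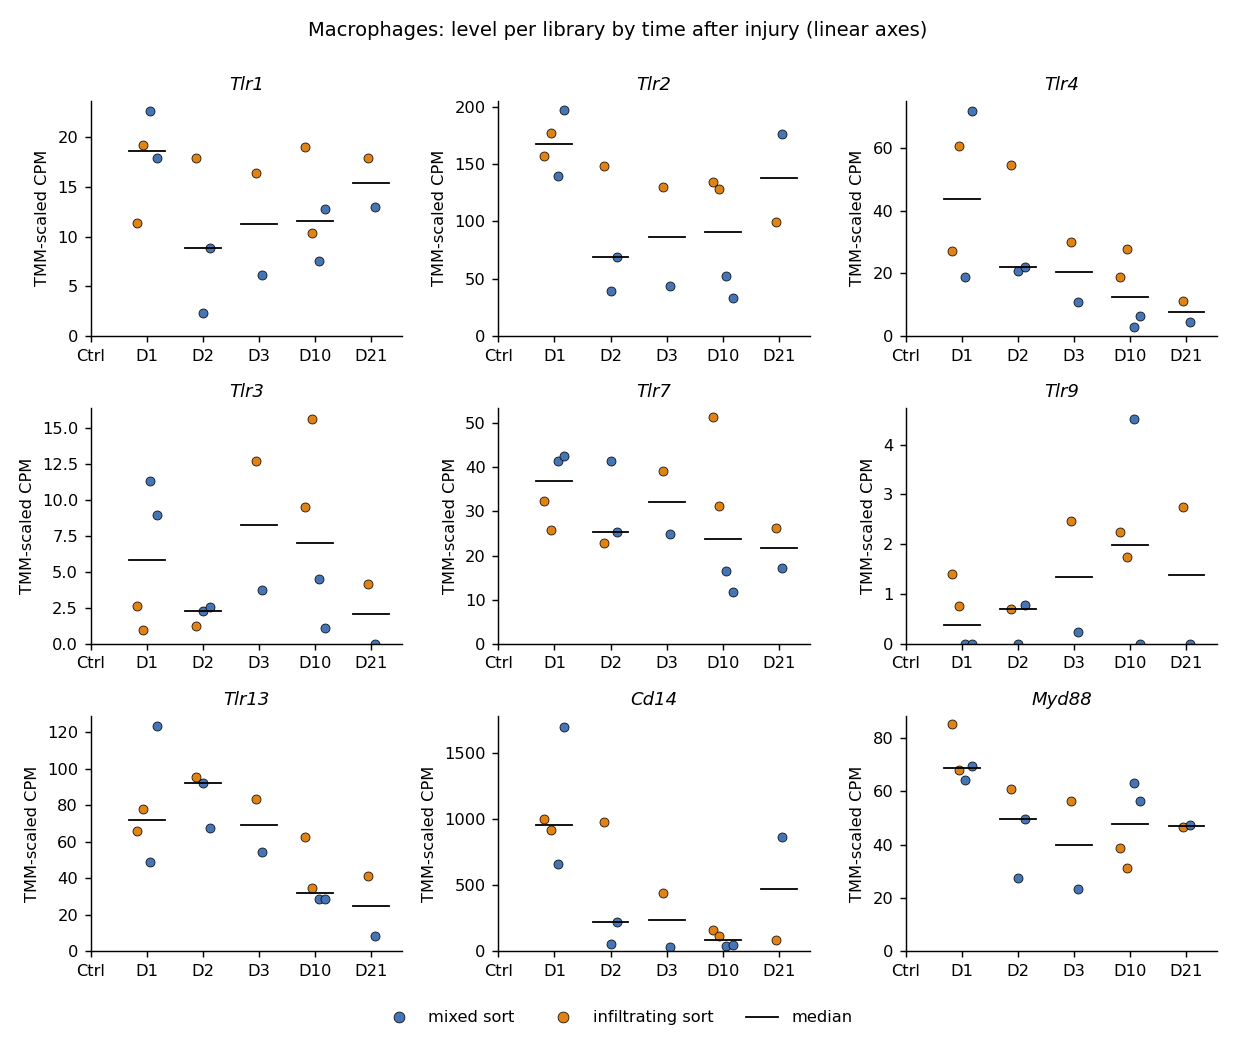
Scaled CPM (vertical axes, linear) of the 9 genes in macrophages by time point (horizontal axes), with a point for each library, coloured by sort, and a line at the median. The control column is empty because control libraries held no macrophages, and Cd14 lies at 661 or more at D1 and at 162 or less at D10.

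To ask how the main cell types differ, macrophages and microglia of the same library were compared, with the library as a block (8 libraries of D1 to D3, 4 of D10 and 2 of D21, 9596 genes, 8 members tested). The authors' codes come from clustering the same cells, so this describes the coded cell types and does not test the codes. The microglial sum of D10_infiltrating 2, a sort left out of the microglial fit above, held 36 cells and 84112 UMIs. Its Tlr1, Tlr13 and Myd88 values were 0, and it counts in the D10 numbers of libraries below. Macrophages had less Tlr3, Tlr7 and Tlr2 and more Myd88 than microglia in both phases, more Tlr13 by the call at D1 to D3, and less Cd14 by the call at D10. At D1 to D3, 2 of 8 members were called higher in macrophages and 3 lower, against 19.2% and 19% of genes. At D10, 1 was called higher and 4 lower, against 8.67% and 6.64%. The members' median log2 difference was -0.22 at D1 to D3 and -1.18 at D10, and that of all genes 0.04 and 0.05.

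Tlr2 in macrophages against microglia was lower in 7 of 8 early libraries (median 70.3 against 137 scaled CPM) and in 3 of 4 at D10 (74.1 against 189). Its log2 difference was -0.82 at D1 to D3 (SE 0.28, edgeR adjusted p = 0.0258) and -1.36 at D10 (SE 0.42, adjusted p = 0.0309). Tlr4 was higher in 7 of 8 early libraries and in 2 of 4 at D10 and was called in neither phase (0.77, adjusted p = 0.0619, and -0.78, adjusted p = 0.352). Tlr1 was called in neither (-0.18 and -1.01).

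Tlr3 was lower in macrophages in 7 of 8 early libraries, with a median of 5.28 against 28.1 scaled CPM, and in 3 of 4 at D10, with 8.97 against 25.9. The log2 difference was -2.33 at D1 to D3 (SE 0.43, edgeR adjusted p = 1.87e-04) and -1.87 at D10 (SE 0.60, adjusted p = 0.0374). Tlr7 was lower in all 8 early libraries, with a median of 41.1 against 61.0, and in 3 of 4 at D10, with 23.9 against 67.9 (-0.75, SE 0.25, adjusted p = 0.0201, and -1.38, SE 0.39, adjusted p = 0.0173). Tlr13 was higher in macrophages in all 8 early libraries, with a median of 80.9 against 44.4, and in 2 of 4 at D10 (0.85, SE 0.27, adjusted p = 0.0170, and 0.05, adjusted p = 0.968).

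Cd14 was higher in macrophages in 4 early libraries and lower in 4 (-0.27, edgeR adjusted p = 0.609), and lower in all 4 at D10, with a median of 84.0 against 409 scaled CPM (-2.39, SE 0.55, adjusted p = 0.00414). The difference between these phases was itself tested, a test added after seeing the data: it was -2.12 for Cd14 (SE 0.65, adjusted p = 0.0404), and 0 of the 8 members had a positive call and 1 a negative one, against 7.19% and 3.35% of genes. Myd88 was higher in macrophages in 7 of 8 early libraries, with a median of 54.0 against 20.3, and in all 4 at D10, with 44.2 against 19.8 (1.02, SE 0.23, adjusted p = 0.00146, and 1.26, SE 0.35, adjusted p = 0.0162). Among these 4, Myd88 in D10_resident 1 was 24.6 against 22.4, and the microglial value of D10_infiltrating 2 was 0. No difference was tested at D21. There Cd14 was higher in macrophages in 1 library and lower in 1, with medians of 457 against 331. Tlr2 and Tlr7 were split in the same way, while Tlr3 was lower and Myd88 higher in both libraries.

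**Figure D4:**
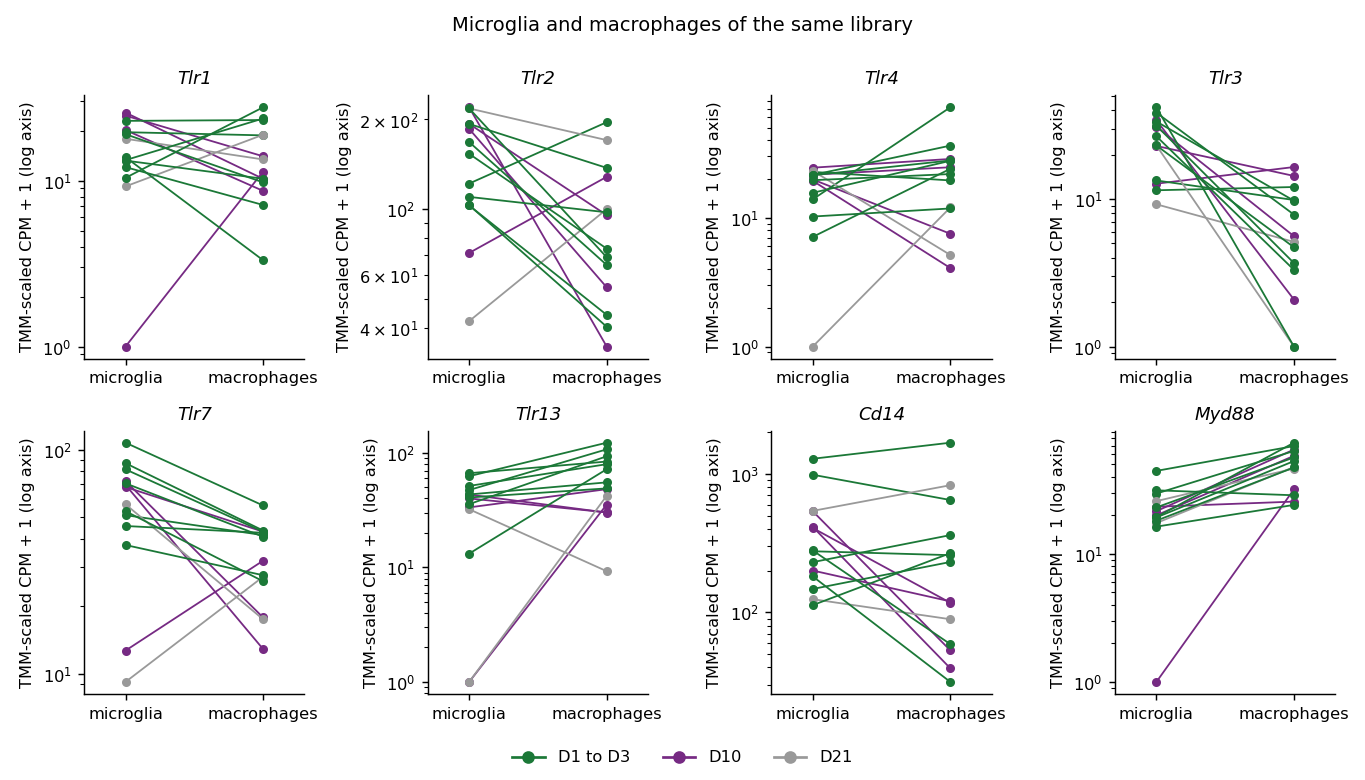
Scaled CPM plus 1 (vertical axes, log scale) of 8 members in microglia and macrophages, with a line joining both sums of a library, coloured by phase. The lines of Tlr7 fall in all 8 libraries of D1 to D3 and those of Tlr13 rise in all 8, and points at 1 are sums with 0 UMIs.

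With total UMIs as the scale, Tlr2 was not called at D1 to D3 (-0.76, edgeR adjusted p = 0.0606) or D10 (-1.35, adjusted p = 0.0549), nor Tlr3 at D10 (-1.88, adjusted p = 0.0622). With at least 50 cells in a sum the early values of Myd88 (0.75, adjusted p = 0.0609) and Tlr2 (-0.76, adjusted p = 0.0889) and the difference between phases in Cd14 (-2.21, adjusted p = 0.128) were not past the threshold. Leaving out a library in turn kept the early calls of Tlr3 (-2.54 to -2.19) and Myd88 (0.85 to 1.17). The early call of Tlr2 was lost without D2_resident 1 (-0.73), D2_mixed 1 (-0.75), D2_mixed 2 (-0.79), D3_resident 1 (-0.78) or D3_mixed 3 (-0.74), that of Tlr7 without D2_resident 1 (-0.74) or D3_resident 2 (-0.70), and that of Tlr13 without D2_mixed 1 (0.77) or D3_resident 2 (0.79). At D10 all 5 calls rested on the mixed libraries: without D10_mixed 1 the values were -1.19 for Tlr2, -1.62 for Tlr3, -1.12 for Tlr7, -2.04 for Cd14 and 1.07 for Myd88, and without D10_mixed 2 they were -0.89, -1.21, -0.96, -2.03 and 1.08, none past the threshold. The D10 call of Tlr3 was also lost without D2_resident 1 (-1.88). The difference between phases in Cd14 was lost in 9 of 14 refits (-2.14 to -1.76): without D1_mixed 1 or 3, D2_resident 1, D2_mixed 2, D3_resident 1 or 2, D10_mixed 1 or 2, or D21_mixed 1. Dissociation genes were higher in macrophages at D1 to D3 for 5 of 7 tested and at D10 for 1 of 7, beside 19.2% and 8.67% of all genes, with 0 lower in both, and their part was not tested.

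The reporter sort gave a comparison free of the authors' codes, between all cells of 7 infiltrating and 5 resident libraries of the same strain (11548 genes, 9 members tested). Of the members, 1 was called higher in infiltrating libraries and 1 lower, against 5.72% and 6.65% of genes, and the median log2 difference was 0.00 against 0.03 for all genes. The fit has a time term, and both sorts are present at D2, D3 and D10 alone, so the tested difference comes from the 4 infiltrating and 4 resident libraries of those times. The fit has no sex term, and sex was not balanced between the sorts. At D2 the infiltrating library was female and the resident one male, and Tlr7 is X-linked. Over all 12 libraries, Tlr7 ran from 19.95 to 49.2 scaled CPM in infiltrating libraries, with a median of 24.7, and from 61.5 to 92.5 in resident libraries, with a median of 65.7, without overlap (-1.24, SE 0.27, edgeR adjusted p = 0.0166). Over the 8 libraries of the shared times it ran from 21.9 to 49.2 and from 61.5 to 79.5, also without overlap. Myd88 ran from 32.3 to 96.7 (median 63.4) and from 23.9 to 51.0 (median 30.4), a log2 difference of 0.86 (SE 0.23, adjusted p = 0.0355), and over the shared times from 32.3 to 74.5 and from 23.9 to 51.0, with overlap. For Tlr3 the values were 1.24 to 21.9 (median 9.07) and 19.9 to 78.5 (median 24.6), which was not called (-1.35, SE 0.64, adjusted p = 0.204).

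Both calls of the sort were lost with the sequencing pool as a term (-0.85 for Tlr7, 0.90 for Myd88), where 0.407% of all genes were called. That of Tlr7 was also lost without D2_infiltrating 1 (-1.11), D2_resident 1 (-1.13) or D3_infiltrating 1 (-1.09). That of Myd88 was lost without D2_infiltrating 1 (0.65), D2_resident 1 (0.63), D3_infiltrating 1 (0.95), D3_resident 2 (0.77), D10_infiltrating 1 (0.84) or D10_resident 1 (0.98). In this comparison the cell types of a library add up, so that a difference in level per cell and a difference in the share of cell types cannot be told apart.

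Neutrophil-like and dendritic-like cells were compared with macrophages in a fit over all 4 cell types, again with the library as a block (10204 genes, 8 members tested). Both comparisons share the macrophage sums. In neutrophil-like cells (4 libraries of D1 and D2) 2 of 8 members were called higher and 0 lower, against 21.5% and 28.4% of genes, and the members' median was 0.39 against -0.22 for all genes. Tlr13 was higher in 3 of 4 libraries, with a median of 204 against 75.0 scaled CPM (1.27, SE 0.37, edgeR adjusted p = 0.00466). Myd88 was higher in 3 of 4, with a median of 124 against 66.5 (0.81, SE 0.26, adjusted p = 0.00926). The call of Tlr13 was lost without D1_infiltrating 2 (1.05) and that of Myd88 without D2_infiltrating 1 (0.49).

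Tlr3 had 0 UMIs among 2642619 in neutrophil-like cells, which allows up to 1.14 CPM (3 counts over the group). Macrophages of the same libraries had 78 UMIs, or 1.75 CPM when pooled, which is 1.55 times that bound. In single libraries they had 0.986 to 2.75 scaled CPM, a spread that the bound leaves out. In the main fit edgeR did not call Tlr3 (adjusted p = 0.0786). With the library of conflicting labels added as infiltrating, which brings 1 UMI of Tlr3, edgeR called it lower in neutrophil-like cells (-3.49, adjusted p = 0.0171). Tlr4 (0.90, edgeR adjusted p = 0.0622, called by DESeq2 at 1.10), Tlr2 (0.48, adjusted p = 0.317) and Cd14 (0.30, adjusted p = 0.707) were not called. Neutrophil-like cells had a median of 2154 UMIs, so their sums are shallow, at 96190 to 1423232 UMIs.

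In dendritic-like cells (9 libraries) 1 of 8 members was called higher than in macrophages and 5 lower, against 13% and 13.9% of genes, and the members' median was -1.09 against -0.01 for all genes. Tlr7 was lower in 9 of 9 libraries, with a median of 6.99 against 26.7 scaled CPM (-2.02, SE 0.27, edgeR adjusted p = 7.77e-07). Tlr13 was lower in 9 of 9, with 22.7 against 68.9 (-1.39, SE 0.30, adjusted p = 4.76e-04). Cd14 was lower in 8 of 9, with 45.0 against 225 (-2.51, SE 0.49, adjusted p = 1.84e-04), and Tlr4 in 8 of 9, with 10.2 against 27.7 (-1.35, SE 0.33, adjusted p = 0.00207). These 4 calls held without each library in turn.

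Tlr2 was lower in dendritic-like cells in 8 of 9 libraries, with a median of 71.0 against 132 scaled CPM (-0.82, SE 0.29, edgeR adjusted p = 0.0305). That call was lost without D1_infiltrating 1 (-0.71), D1_infiltrating 2 (-0.74), D2_infiltrating 1 (-0.77), D3_infiltrating 1 (-0.70) or D10_infiltrating 2 (-0.75). Tlr3 went the other way, higher in 7 of 9, with 8.89 against 3.76 (1.35, SE 0.40, adjusted p = 0.0115), and lost the call without D1_infiltrating 2 (1.12) and with at least 50 cells in a sum (1.22, adjusted p = 0.0694). Myd88 was higher in 8 of 9 libraries without a call.

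Across the authors' 16 clusters, CPM pooled over libraries placed the members apart. These are descriptions, since the clusters were made from the same cells, and the library with conflicting labels is left out of them, a choice made after seeing the data. Cluster 1, which held exactly the 1887 control cells, had the highest Tlr3 (126 CPM, 109 and 132 in its 2 libraries, next 46.1 in cluster 7), Tlr7 (109.5) and Tlr1 (30.2). Tlr2 was highest in cluster 4 (249.6, with 163 to 273 in 6 libraries), a cluster of the microglia code, and lowest in cluster 10 (33.8). Tlr4 (94.5), Tlr13 (206) and Myd88 (123) were highest in cluster 16, the neutrophil-like cells, where Tlr3 had 0 UMIs. The library left out held 897 of the 2116 neutrophil-like cells, and with it these values were 72.8, 154 and 111, with 1 UMI of Tlr3. Single libraries could exceed the pooled order: Tlr7 was 292 CPM in cluster 14 of D3_infiltrating 1, from 10 UMIs in 23 cells, and Tlr1 was 51.1 in cluster 9 of D21_infiltrating 1, from 8 UMIs in 29 cells.

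Cd14 was highest in clusters 14 (2300 CPM) and 12 (1600 CPM, with 1236 to 2048 in 5 libraries), both of the macrophage code, and lowest in clusters 10 (15.9) and 15 (46.8), the latter the dendritic-like cells. In cluster 14 its 2 libraries with at least 20 cells had 350.3 and 875 CPM, below the pooled value. Cluster 3, which crosses the codes, had the lowest Myd88 (17.9), and cluster 13 had 106.5. Some neighbours in these orders overlapped between libraries, such as for Cd14 in clusters 16 (187 to 1886) and 5 (93.1 to 988).

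**Figure D5:**
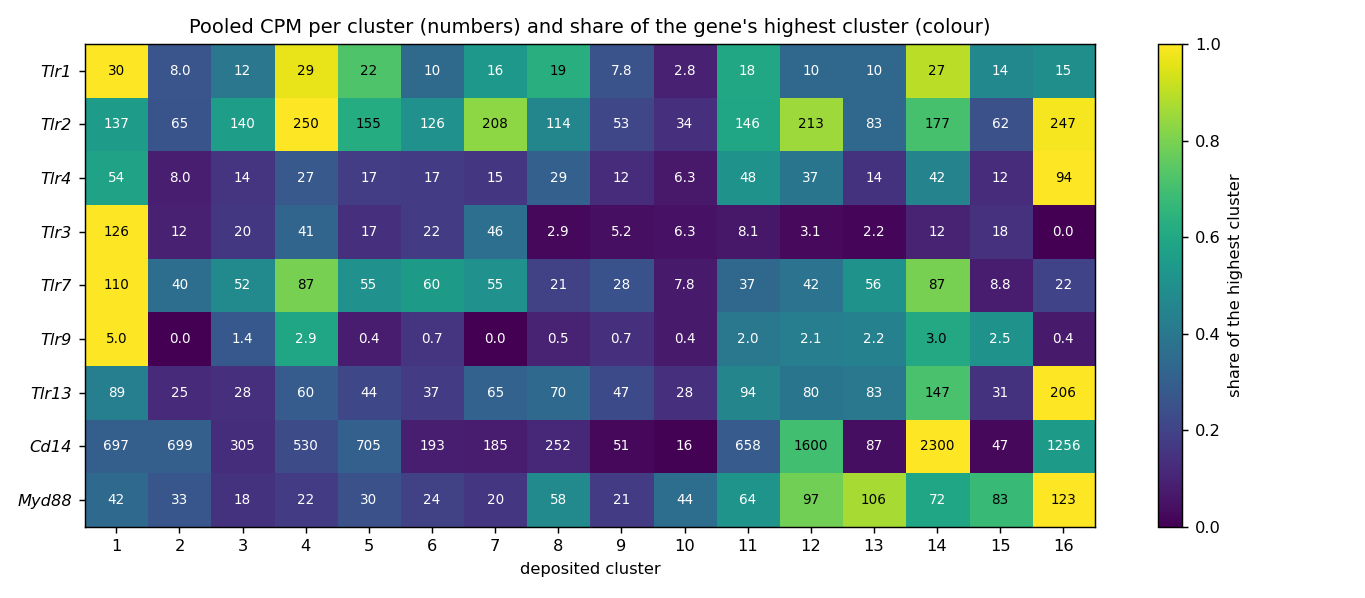
Pooled CPM of the 9 genes (rows) in the 16 deposited clusters (columns), printed in each cell, with colour for the share of that gene's highest cluster, over 24 libraries without the one whose labels conflict. Tlr3 and Tlr7 are highest in cluster 1, the control microglia, and Cd14 is highest in clusters 14 and 12 by pooled values, although both libraries with at least 20 cells of cluster 14 lie below the 5 of cluster 12.

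Likeness was measured as Pearson's r of log2 CPM over 51 sums of 1 cell type in 1 library, among 10204 genes. The sums share libraries and cell types, so r is a description. Cd14 was most like Fcgr3 (0.81), Tlr2 (0.78) and Cd53 (0.77), and Tlr2 was most like Cd14 (0.78), Cd9 (0.73) and Lcp2 (0.71). Tlr4 was most like 1700017B05Rik (0.85), Npepps (0.81) and Fbxl5 (0.80), and Tlr7 most like Cdk5r1 (0.83), Serinc1 (0.82) and Rhob (0.81). Between members, Tlr4 and Tlr13 had an r of 0.67, Cd14 and Tlr4 0.60, Cd14 and Tlr3 -0.19 and Cd14 and Myd88 0.15.

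The rest of the pathway was described with a list of 45 other genes: ligand-binding partners, other receptors, adaptors, kinases and ubiquitin ligases, trafficking genes, inhibitors and transcription factors. In microglia 39 were tested. Against Ctrl, 3 were higher and 11 lower at D1, beside 23.9% and 22.7% of all genes, 2 and 10 at D2 (17.6% and 12.2%), 4 and 10 at D3 (20.1% and 17.6%), and 2 and 1 at D10 (8.06% and 2.22%). Their median log2 changes were -0.55, -0.62, -0.44 and -0.20 in time order, beside -0.01, -0.02, -0.04 and -0.01 for all genes. By size of change, Cd36, a scavenger receptor that assists Tlr2, rose by 5.58, 4.94, 5.13 and 2.78 on the log2 scale in time order, and Tlr12, an endosomal receptor for profilin, was lower (-3.72, -3.43, -3.54 and -1.86). Ikbke, an NF-kB pathway kinase, was called higher at D1, D3 and D10 from 3 UMIs in controls, with 48 at D1 (ratio 9.62, 95% counting interval 3.101 to 48.3). Lrrc59, a trafficking protein of the endosomal receptors, rose by 2.21 at D2.

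From D1 to D3, 2 of these 39 genes were higher and 3 lower in microglia, beside 8.62% and 10.2% of all genes, led by Tlr6 (1.43), another partner of Tlr2, the kinase gene Irak1 (-1.23) and Lrrc59 (-1.15). From D3 to D10, 1 was higher and 2 lower, beside 2.96% and 3.92%, led by Cd36 (-2.35), Lrrc59 (-1.17) and Ly96 (0.88), which encodes MD-2, the part of the Tlr4 complex that binds lipopolysaccharide. In macrophages from D1 to D10, 5 of 38 were higher and 3 lower, beside 7.31% and 7.04%, led by Lbp (3.27), the lipopolysaccharide-binding protein, Ly86 (2.24) and Cd36 (-2.15).

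At D1 to D3, 19 of 39 pathway genes were higher in macrophages than in microglia and 4 lower, beside 19.2% and 19% of all genes, and 10 of the 13 kinases and ubiquitin ligases tested were higher and 0 lower. Ly86, partner of the receptor-like Cd180, was lower (-4.12), and Tlr8 (3.55) and Lbp (3.25) were higher, with few UMIs in microglia (15 for Tlr8 and 5 for Lbp in the early sums). At D10, 4 were higher and 2 lower, beside 8.67% and 6.64%, led by Lbp (6.22, from 5 UMIs in microglia), Tlr8 (2.86) and Ly86 (-2.62). The difference between the phases had 0 positive and 3 negative calls, beside 7.19% and 3.35%, which were Zc3h12a (-2.42), an RNase that degrades inflammatory transcripts, Irak2 (-2.33) and Ly96 (-1.34).

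Between infiltrating and resident libraries, 4 of 43 were higher and 3 lower, beside 5.72% and 6.65% of all genes, led by Ly86 (-2.44), Cd180 (-1.97) and the adaptor gene Tirap (1.28). In neutrophil-like cells 13 of 41 were higher and 8 lower than in macrophages, beside 21.5% and 28.4%, led by Cd36 (-4.32), Ly86 (-4.31) and Irf8 (-3.79), a transcription factor of the macrophage and dendritic lineages. In dendritic-like cells 4 of 41 were higher and 14 lower, beside 13% and 13.9%, led by Cd36 (-4.99), Ly96 (-2.69) and Lbp (-2.61).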

How the data were processed

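Counts of UMIs per gene and cell were deposited by the authors, made with Cell Ranger 3.1.0 on GRCm38 (mm10) per the submitters' processing notes. Aligner settings and cell filters are not given in the sources used here. The deposited cell annotation gave clusters and coded cell types, which were named where fixed markers reached 20 CPM and 2 times their level in the other codes, with 5 CPM added to both. From the counts, sums per library and cell type of at least 20 cells were made, low genes removed (filterByExpr) and TMM-scaled, and 2-sided quasi-likelihood tests run in edgeR 4.0.16 (R 4.3.3), with Benjamini-Hochberg adjustment over all genes and a threshold of 0.05. Fits within a cell type had terms for time and sex, the fit of the sort had time and sort, and fits between cell types had the library as a block. The standard error is the log2 change divided by the root of F. DESeq2 1.42.0, other scalings and filters, a pool term, mixed libraries alone and each library left out were alternatives. So were fits without cluster 2, without the sex term and with the replicate number as a block. A check of the test on simulated counts changed few genes at D3 and left the make-up of the libraries otherwise alike, so it does not bear on the scaling. No result here rests on it.

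Replicates are libraries pooling 1 to 3 mice, so p-values measure the spread between libraries. Doublets were not called, and counts from free RNA were left in. In summed cells, fewer cells holding a gene's RNA and less RNA per cell cannot be told apart. All 9 members are described, with the 3 pathway genes of largest called change in each comparison and the 3 genes most like each of Cd14, Tlr2, Tlr4 and Tlr7. The members and lists were chosen with earlier results of these data known. Deposited series-wide tables of few genes were not used, and columns of per-sample values left unmapped numbered 0.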

Additional observations from a re-analysis of the deposited data

Results flagged for a closer look

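Among 44 groups of 4 to 10 libraries, 3 held a library far from the others, where chance gives about 1 in 20 groups. Cd14 in D1 macrophages was 1844 CPM in D1_mixed 3, and the next library had 903. Tlr13 in D10 macrophages was 55.5 CPM in D10_infiltrating 1, and the next had 33.1. Tlr9 in neutrophil-like cells was 0.703 CPM in D1_infiltrating 2, from 1 UMI in the deepest of these sums (1423232 UMIs), and at 0 UMIs in the others.

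The difference of macrophages from microglia in Cd14 was lower at D10 than at D1 to D3 by a tested log2 value of -2.12 (edgeR adjusted p = 0.0404). In the D3 library whose title and sort label conflict, which was left out of the comparisons, Myd88 over all cells was 73.5 CPM, and the higher control library had 48.0. These are unlike mixes of cells, since that library held 2367 macrophages, 528 dendritic-like and 897 neutrophil-like cells among 3800 and the controls held microglia alone.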

How the results depend on the processing

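Members called moved by over 1.5 times in these cases, given beside the share of all genes called in the same fit. With DESeq2 they went from 1 to 2 for microglia D10 against D3 (13.6%, from 6.88%) and for macrophages D10 against D1 (20.8%, from 14.4%). With total UMIs they went from 2 to 7 at D2, 5 to 8 at D3 and 2 to 4 at D10 against Ctrl in microglia, the 7, 8 and 4 all being lower, beside 24.2%, 36.6% and 20% of all genes called lower and 11.7%, 10.9% and 4.57% higher, and from 5 to 3 for macrophages against microglia at D10 (14%). With the pool as a term they went to 0 for microglia D3 against Ctrl, microglia D10 against D3 and the sort, beside 2.36%, 0% and 0.407% of all genes. With mixed libraries alone they were 1, 1, 0 and 0 for microglia at D1, D2, D3 and D10 against Ctrl (10.8%, 18.6%, 5.63% and 0.637%), 1 for D3 against D1 (10.7%) and 0 for D10 against D3 (1.05%), and in macrophages 4 for D3 against D1 (11.5%), where D3 is 1 library, and 5 for D10 against D1 (15.8%); Tlr4 in microglia D1 vs Ctrl turned to 0.71 and in microglia D3 vs Ctrl to 0.10. Without the sex term they were 4 for microglia D2 (32.3%) and 2 for D10 against D3 (8.69%). Without the filter on low counts they were 2 for macrophages D10 against D1 (8.57%) and 2 for the difference between phases (7.58%). With at least 50 cells a sum they were 3 for macrophages against microglia at D1 to D3 (24.9%) and 0 for the difference (5.39%). The cause was not tested.

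Leaving out each library, the members called ranged from 2 to 5, 0 to 4, 1 to 6 and 0 to 3 for microglia at D1, D2, D3 and D10 against Ctrl, 1 to 4 for D3 against D1, 0 to 1 for D10 against D3, 0 to 0 by sex, 0 to 0 and 0 to 2 for macrophages D3 and D10 against D1, 0 to 2 for the sort, 3 to 6 and 0 to 5 for macrophages against microglia early and at D10, 0 to 2 for the difference, 1 to 3 for neutrophil-like and 4 to 6 for dendritic-like cells. Of the 40 called member results, 978 refits gave 2 reversals, 93 lost calls on leaving out a library and 39 under other settings.

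Over all genes, calls went with the pool term from 4064 to 255 for microglia D3, 3210 to 1585 for D2 and 1111 to 2404 for D10 against Ctrl, 743 to 0 for D10 against D3 and 1428 to 47 for the sort. With mixed libraries alone they went to 1206, 2077, 628 and 71 against Ctrl (D1 from 5034), 1190 for D3 against D1, 117 for D10 against D3 and 860 for macrophages D3 against D1 (from 0). DESeq2 gave 1444 for D10 against D3 and 16 for macrophages D3 against D1, total UMIs 2655 for D10 against Ctrl, and 50 cells 570 for the difference.

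With the replicate number as a block, Tlr2 was called in microglia D1 vs Ctrl (1.11, edgeR adjusted p = 0.0212), and Tlr4 there (-0.74, 0.0761) and Tlr1 in microglia D3 vs Ctrl (-0.89, 0.0721) were not. Same-numbered D1 and D3 mixed libraries correlated at -0.01, 0.14 and 0.10 over 4286 genes. D1_mixed 2 and D1_mixed 3 did best with their own number, and D1_mixed 1 with another (0.08). Correlations this weak cannot decide whether the numbers mark paired libraries. No fit with a pool term could be made for microglia D1 against Ctrl, microglia D3 against D1 or macrophages D10 against D1. Depth limits Tlr9, and Tlr3 in neutrophil-like cells.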
